A study of Homo sapiens with 8 samples.

Results

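The 9 genes described here encode enzymes that salvage uridine and cytidine or build pyrimidine nucleotides from small precursors. They are UPP1, CDA, PGM2, UCK1, UCK2, UCKL1, CAD, DHODH and UMPS, taken by gene name from a table of 58735 genes. UPP1 was placed among them because its level was higher without glucose in these libraries, so everything measured in the glucose comparison is given as a description, without a test. The genes were followed in 8 RNA-seq libraries of HCT116, an established human colorectal carcinoma cell line, in 4 groups of 2. Cells in the first group expressed shRNA 1 against MAPKAPK2, and cells in the second expressed shRNA 2 against it. MAPKAPK2 encodes MK2, a protein kinase activated by p38 MAP kinases in stress signalling. Both knockdown groups had 20 mM glucose, and how long they were cultured is not stated in the labels. The last 2 groups carried a control short hairpin RNA (shRNA) and spent 24 h with 0 mM or 20 mM glucose. All libraries thus came from shRNA-expressing cells. The labels do not say whether a group was a clone or a pool of cells, or if its pair of libraries stemmed from different cultures. The p-values therefore reflect only how far these libraries spread, which may be technical.

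Pyrimidine nucleotides reach a cell's pool by 2 routes. In salvage, uridine kinases phosphorylate uridine or cytidine, and cytidine deaminase turns cytidine into uridine. Uridine phosphorylase, UPP1, instead splits uridine into uracil and ribose 1-phosphate, which PGM2 converts to ribose 5-phosphate, a sugar phosphate that can feed the pentose phosphate pathway and glycolysis. This use of uridine as a carbon source is known from cultured tumour cells deprived of glucose. In de novo synthesis the large CAD protein carries out the opening steps, DHODH oxidises dihydroorotate at the inner mitochondrial membrane, and UMPS makes uridine monophosphate.

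The sequences just upstream of the members with the clearest patterns below, UPP1, CDA, UCK2 and CAD, are shown 5′ to 3′ on the plus strand, on which all 4 genes lie. They come from the RefSeq promoter table for GRCh38, which held all 9 members in 12 windows, and were limited to bases upstream of the RefSeq start and of the annotated gene start. Capitals mark a match to a searched motif.
UPP1, chr7:48088454-48088627: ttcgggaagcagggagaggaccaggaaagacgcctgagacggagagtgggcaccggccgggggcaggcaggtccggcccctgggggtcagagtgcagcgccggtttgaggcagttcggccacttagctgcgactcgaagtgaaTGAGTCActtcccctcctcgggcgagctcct
CDA, chr1:20588847-20588947: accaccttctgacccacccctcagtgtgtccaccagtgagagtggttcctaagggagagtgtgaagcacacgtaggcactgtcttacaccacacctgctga
UCK2, chr1:165827364-165827530: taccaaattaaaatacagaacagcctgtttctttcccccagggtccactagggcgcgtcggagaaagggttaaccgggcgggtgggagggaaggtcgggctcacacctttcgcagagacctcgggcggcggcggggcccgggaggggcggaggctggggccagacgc
CAD, chr2:27217119-27217368: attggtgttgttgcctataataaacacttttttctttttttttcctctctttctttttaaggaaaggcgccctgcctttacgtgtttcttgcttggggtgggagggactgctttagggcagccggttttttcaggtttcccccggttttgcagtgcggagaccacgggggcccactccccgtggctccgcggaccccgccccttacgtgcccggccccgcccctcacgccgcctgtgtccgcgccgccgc
The capitals in the UPP1 sequence are an AP-1 element, TGAGTCA, which ends 25 bases upstream of the annotated gene start. Of the 35116 windows of 250 bases before a RefSeq start, 4.2% held that motif on either strand. The E-box CACGTG was present in 6.34% of all windows and in 3 of the 12 member windows, those of DHODH, PGM2 and UCKL1. The cAMP response element core TGACGTC was present in 3.12% of windows and, among members, in that of UMPS. The core of the C/EBP-ATF element, TGATGCA, was present in 2.16% of windows and, among members, in that of PGM2. No match says only that these letters are not in the window, and a match is not a binding site.

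The deposited table gives FPKM, the number of fragments relative to a gene's exon length and to a size value for the library. For the members that length covers the exons of all annotated transcripts, whichever are used, so levels compare only roughly between genes. Libraries held 14252316 to 19975449 reads in genes. The library size behind FPKM, recovered from the values, was not this sum of reads. With shRNA 2 it was 18939600 and 16098100, below the sums of 19794574 and 16948589. In the other groups it lay above the sum, with shRNA 1 at 18827800 and 15291300 against 18270915 and 14252316. The part of this scaling in the differences between groups was not tested. All 9 members passed the filter of at least 1 FPKM in at least 2 libraries, as did 16239 genes in all. MAPKAPK2 itself measured 2.77 and 2.54 FPKM with shRNA 1 and 0.982 and 0.800 FPKM with shRNA 2, against 17.9 and 18.9 FPKM in control cells at 0 mM and 16.4 and 16.2 FPKM in control cells at 20 mM glucose. On the third principal component of all tested genes, with 11.4% of the variance, replicate 2 of the control cells at 0 mM stood at 32.4 and replicate 2 with shRNA 2 at 18.4, while the other 6 libraries lay between -16.7 and 0.964. The members' differences without these 2 libraries are given beside each result. For genes of other lists, calls with each library left out, an alternative chosen after the data were seen, are given below. Of 9 colorectal epithelial markers 6 reached 1 FPKM, including EPCAM at 68.2 to 139 FPKM and CDX2 at 4.26 to 6.48 FPKM, while CDX1 was at 0 in all libraries and VIL1 and LGALS4 stayed below 1 FPKM. Of 9 markers of blood, stroma, endothelium and liver only COL1A1 reached 1 FPKM, at 3.84 to 6.72 FPKM, and DCN was at 0 throughout. By limma against control cells at 20 mM, CDH1 was higher with shRNA 1 (log2 0.89, adjusted p 0.00290), and with shRNA 2 EPCAM, KRT8, KRT18 and CDH1 were lower (log2 -0.69, -0.62, -0.62 and -0.44). COL1A1 was lower with both hairpins (log2 -0.60 and -0.49, limma adjusted p 0.00893 and 0.0171). Without replicate 2 of shRNA 2, the differences with that hairpin were -0.67 for EPCAM, -0.45 for KRT8 and -0.52 for KRT18 and for CDH1. For COL1A1 it was -0.43. With each library left out in turn, the shRNA 2 calls of KRT8, KRT18 and CDH1 were lost in some fits. So were both calls of COL1A1, while that of EPCAM stood in all. The epithelial markers summed to 1380 to 1578 FPKM with shRNA 1, 1219 to 1554 FPKM with shRNA 2 and 1750 to 1777 FPKM in control cells at 0 mM, against 1512 to 1548 FPKM in control cells at 20 mM. The markers of other cells summed to 4.03 to 4.21, 4.23 to 4.70 and 5.92 to 6.31 FPKM in the same groups, against 6.42 to 7.06 FPKM in control cells at 20 mM. The part of these shifts in the members' differences was not tested.

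The members are annotated on GRCh38 as follows. UPP1 (ENSG00000183696) lies at chr7:48088628-48108733, PGM2 at chr4:37826633-37862937, DHODH at chr16:72008588-72027664, CAD at chr2:27217390-27243943, UMPS at chr3:124730366-124749273, CDA at chr1:20588948-20618908 and UCK2 at chr1:165827531-165911618, all on the plus strand. UCK1 lies at chr9:131523801-131531268 and UCKL1 at chr20:63939829-63956415, both on the minus strand. Other genes overlap 7.56% of the exon bases of UCK2, 7.41% of those of UCKL1 and 0.223% of those of UCK1, and no exon base of the other 6 members.

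By FPKM, CAD was the most abundant member in 3 of the 4 groups, with group means of 30.0 to 42.1 FPKM over all 4 groups. CDA stood above it only with shRNA 2. DHODH had the lowest FPKM in every group, with means of 3.24 to 4.67 FPKM. This order depends on the exon length used, 6921 bases for DHODH and 963 for CDA. In control cells at 20 mM, DHODH had 397 and 488 reads, against 260 and 264 for CDA. Neighbours in the order did not always separate. UMPS and UCK1, which ranked next to each other everywhere, overlapped in all 4 groups. CDA and UCKL1 overlapped with shRNA 1 and in control cells at 0 mM, UCK2 and PGM2 overlapped with shRNA 2, and PGM2 and UCK2 overlapped in control cells at 0 mM. UPP1 ranked 6 of 9 with either MAPKAPK2 shRNA, 2 of 9 in control cells at 0 mM and 5 of 9 in control cells at 20 mM. The members also differed in how much they varied. Over the 8 libraries the SD of log2(FPKM + 1) was 0.60 for CDA, 0.51 for UPP1 and 0.33 for UCK2, against 0.10 for both UCK1 and UMPS. The SD of UPP1 includes the libraries at 0 mM for which it was chosen, so it follows in part from that choice. In the libraries at 20 mM glucose UPP1 ran from 9.07 to 13.7 FPKM.

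**Figure D1:**
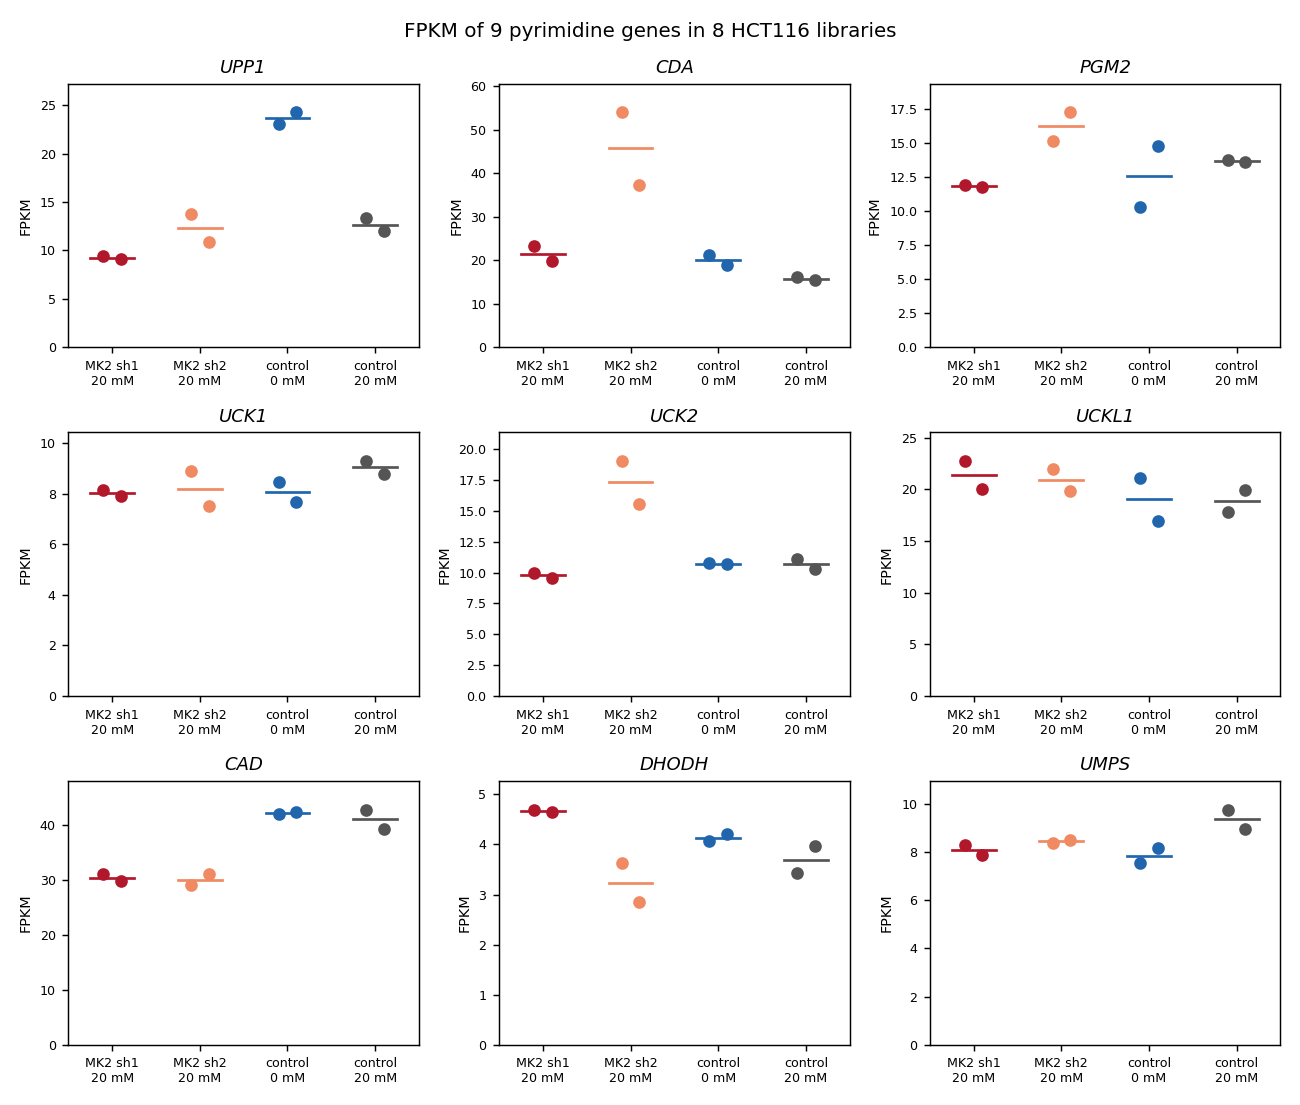
FPKM of each member (vertical axis, starting at 0) in every library. Points are single libraries of cells with MAPKAPK2 shRNA 1, with MAPKAPK2 shRNA 2, with control shRNA at 0 mM glucose and with control shRNA at 20 mM glucose (left to right), and lines are means of 2 libraries. CAD is lower in all 4 knockdown libraries than in all 4 control libraries, CDA and UCK2 are highest with shRNA 2, and UPP1 is highest at 0 mM glucose.

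With MAPKAPK2 shRNA, 2 members changed in the mean of both hairpins against control cells at 20 mM: CAD fell and CDA rose. UCK2 rose with shRNA 2 alone, and UPP1 did not pass the test with either hairpin. By limma on log2(FPKM + 1), with Benjamini-Hochberg adjustment over all tested genes and a threshold of 0.05, 1 of 9 members passed with shRNA 1, 3 of 9 with shRNA 2 and 2 of 9 in the mean, where both hairpins also had to share a sign. Among all tested genes, 19.8% passed with shRNA 1 (9.35% higher and 10.5% lower), 18.8% with shRNA 2 (11.1% higher and 7.73% lower) and 17.3% in the mean (9.57% higher and 7.77% lower). Against these shares, 1 to 3 passing genes among 9 is not a result about the members as a set. The median difference of the members was -0.16 with shRNA 1 and -0.04 with shRNA 2 on the log2 scale, against -0.01 and 0.01 for all tested genes. The recovered reads behind a member's value numbered from 260, for CDA in one library, to 7306, for CAD.

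**Figure D2:**
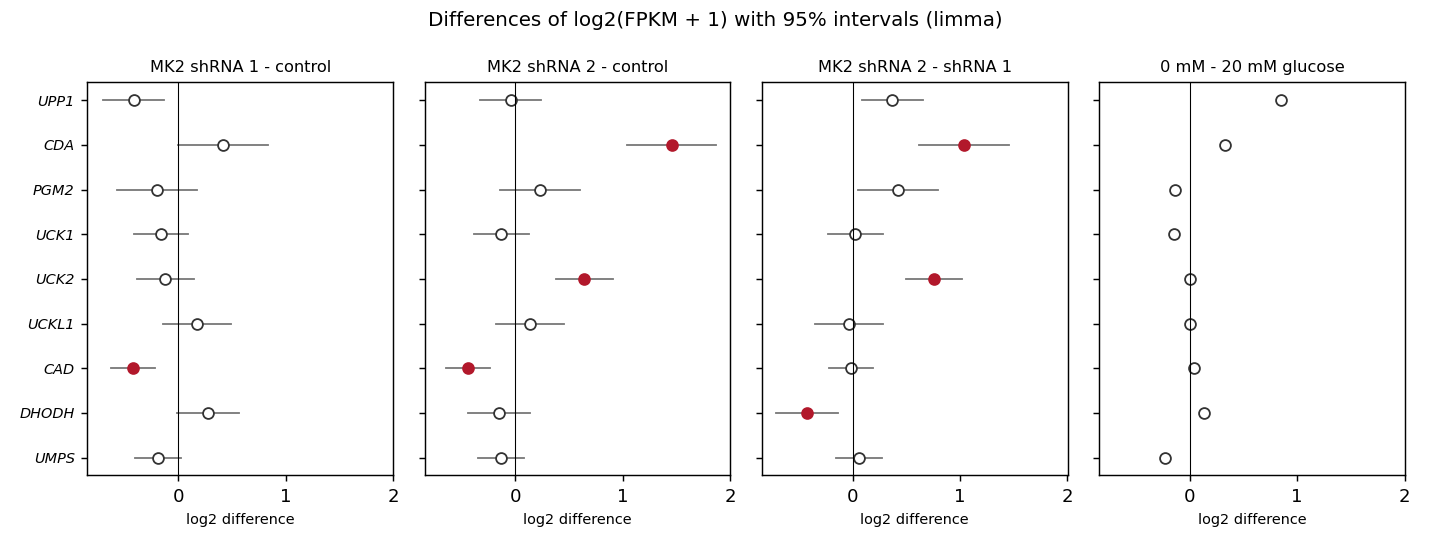
Differences in log2(FPKM + 1) (horizontal axis) for the 9 members, from left to right for shRNA 1 minus control, shRNA 2 minus control, shRNA 2 minus shRNA 1, and 0 mM minus 20 mM glucose in control cells. Lines are 95% intervals from limma and filled points have an adjusted p below 0.05, while the glucose panel shows differences only. CAD lies near -0.4 in both comparisons with control, and UPP1 lies farthest from 0 in the glucose panel, at 0.85.

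Among the salvage enzymes, CDA, which deaminates cytidine to uridine and also acts on cytidine analogue drugs, had 23.2 and 19.8 FPKM with shRNA 1 and 54.1 and 37.3 FPKM with shRNA 2, against 16.1 and 15.4 FPKM in control cells at 20 mM. Every knockdown library was above both controls, and the libraries with shRNA 2 were the highest of all. CDA averaged 45.7 ± 11.9 FPKM with shRNA 2 and 15.8 ± 0.523 FPKM in control cells (SD, n = 2 each), a 2.90-fold difference. On the log2 scale that difference was 1.45 (limma adjusted p 0.00276, 95% interval 1.04 to 1.87), and it passed under all 14 other settings run. Without replicate 2 of shRNA 2, which stood apart on the third component, it was 1.72, and without replicate 1 of shRNA 2 it was 1.19. With shRNA 1 the difference was 0.42 (0.00240 to 0.838, limma adjusted p 0.145), called only when either shRNA 2 library was left out (0.0339 and 0.0338), with quantile normalization (0.0496) or in a fit to the compared groups alone (0.0463), and the mean of both hairpins was higher by 0.94 (limma adjusted p 0.00841). The mean's call was lost without control replicate 1 (limma adjusted p 0.0709) and without control replicate 2 (0.0771). As these are bulk samples, a change in the share of cells that express a gene cannot be told apart from a change in RNA per cell.

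UCK2, the uridine-cytidine kinase known for its higher expression in many tumours, had 9.96 and 9.58 FPKM with shRNA 1 and 19.1 and 15.5 FPKM with shRNA 2, against 11.1 and 10.3 FPKM in control cells at 20 mM. Only the libraries with shRNA 2 lay above the controls, and the libraries with shRNA 1 lay below them. Against control cells the log2 difference was 0.64 with shRNA 2 (limma adjusted p 0.00970, 95% interval 0.38 to 0.90), a 1.62-fold higher mean. It was -0.12 with shRNA 1 (-0.38 to 0.15, limma adjusted p 0.506), and with opposite signs no change was called in the mean of both. Without replicate 2 of shRNA 2 the difference with that hairpin was 0.78, and without its replicate 1 it was 0.50. The call was lost without control replicate 1 (limma adjusted p 0.0543), without control replicate 2 (0.0738) and in a fit to the compared groups alone (0.0723).

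Neither of the other uridine kinases passed with either hairpin. UCK1, the more widely expressed uridine-cytidine kinase, had 8.12 and 7.88 FPKM with shRNA 1 and 8.90 and 7.49 FPKM with shRNA 2, against 9.30 and 8.78 FPKM in control cells at 20 mM. Its libraries with shRNA 1 were below both controls and those with shRNA 2 overlapped them, at log2 differences of -0.16 and -0.13 (limma adjusted p 0.354 and 0.455), and at -0.02 with shRNA 2 once its replicate 2 was left out. The level of UCK2 relative to UCK1, a ratio of FPKM within a library, was accordingly 2.14 and 2.08 with shRNA 2, outside the 1.17 to 1.40 of the other 6 libraries. UCKL1, a uridine kinase-like protein, had 22.8 and 20.1 FPKM with shRNA 1 and 22.0 and 19.8 FPKM with shRNA 2, against 17.8 and 20.0 FPKM in control cells, with log2 differences of 0.17 and 0.14 (95% intervals -0.14 to 0.49 and -0.18 to 0.46). With shRNA 2 it was 0.21 without replicate 2 (limma adjusted p 0.420).

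UPP1, the phosphorylase that opens the ribose route, had 9.43 and 9.07 FPKM with shRNA 1 and 13.7 and 10.9 FPKM with shRNA 2, against 13.3 and 12.0 FPKM in control cells at 20 mM. Both libraries with shRNA 1 were below both controls, and those with shRNA 2 spanned them. The shRNA 1 mean was 73.0% of the control mean, a log2 difference of -0.41 (95% interval -0.70 to -0.13) that missed the threshold in the planned fit (limma adjusted p 0.0531) and passed under 5 of 14 other settings, among them limma voom on the recovered reads (adjusted p 0.0293) and leaving out either shRNA 2 library (0.0176 each). The same 20 mM controls served the glucose comparison for which UPP1 was chosen, so a control level that lies low or high by chance enters both. With shRNA 2 the difference was -0.04 (-0.33 to 0.24, limma adjusted p 0.840), and without replicate 2 of shRNA 2 it was 0.11 (limma adjusted p 0.515). The mean of both hairpins differed by -0.23 (limma adjusted p 0.177), and was called only without replicate 1 of shRNA 2 (-0.31, limma adjusted p 0.0392). PGM2, which handles the ribose 1-phosphate that UPP1 releases, had 11.9 and 11.8 FPKM with shRNA 1 and 15.2 and 17.3 FPKM with shRNA 2, against 13.8 and 13.6 FPKM in control cells. Its libraries with shRNA 1 lay below and those with shRNA 2 above the controls, and neither difference passed (log2 -0.20 and 0.23, limma adjusted p 0.434 and 0.372). The difference with shRNA 2 was 0.14 without its replicate 2 (limma adjusted p 0.675).

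On the de novo side, CAD had 31.1 and 29.7 FPKM with shRNA 1 and 29.1 and 31.0 FPKM with shRNA 2, against 42.8 and 39.2 FPKM in control cells at 20 mM. All 4 knockdown libraries fell within 29.1 to 31.1 FPKM, below every control library at either glucose level. The knockdown means were 74.1% of the control mean with shRNA 1 and 73.2% with shRNA 2. The log2 differences were -0.42 (SE 0.09, limma adjusted p 0.0181) and -0.44 (SE 0.09, limma adjusted p 0.0154), and their mean was -0.43 (limma adjusted p 0.0110, 95% interval -0.61 to -0.25). The mean's call was lost without control replicate 1 (limma adjusted p 0.119) and without control replicate 2 (0.0615), where a single control library remained, and each hairpin's own call was lost there too (limma adjusted p 0.129 and 0.0687 with shRNA 1, 0.119 and 0.0603 with shRNA 2). The call with shRNA 1 was also lost without either shRNA 1 library (limma adjusted p 0.0818 and 0.111) and with quantile normalization (0.0596), and that with shRNA 2 in a fit to the compared groups alone (0.0879). The difference was negative under every setting run. Without replicate 2 of shRNA 2 the difference with that hairpin was -0.48 (limma adjusted p 0.0224).

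DHODH and UMPS, the enzymes after CAD in the route, did not pass with either hairpin. UMPS had 8.28 and 7.89 FPKM with shRNA 1 and 8.39 and 8.51 FPKM with shRNA 2, against 9.76 and 8.94 FPKM in control cells at 20 mM. All 4 knockdown libraries lay below both controls, with log2 differences of -0.19 (95% interval -0.40 to 0.03) and -0.13 (-0.34 to 0.08). DHODH had 4.70 and 4.65 FPKM with shRNA 1 and 3.62 and 2.85 FPKM with shRNA 2, against 3.43 and 3.96 FPKM in control cells. Its libraries with shRNA 1 lay above the controls, with a log2 difference of 0.28 (-0.01 to 0.56), and those with shRNA 2 overlapped them, with a difference of -0.15 (-0.44 to 0.14). Leaving out replicate 2 of shRNA 2 gave differences of -0.14 for UMPS and -0.02 for DHODH with that hairpin. Whether the 3 de novo enzymes differed from each other in their response was not tested. The FPKM of CAD relative to UMPS was 3.76 and 3.76 with shRNA 1 and 3.46 and 3.64 with shRNA 2, against 4.38 and 4.39 in control cells at 20 mM.

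The direct comparison of the hairpins separated 3 of 9 members, while 22.2% of all tested genes differed between them (13.0% higher and 9.13% lower with shRNA 2). UCK2 was higher with shRNA 2 by 0.76 on the log2 scale (limma adjusted p 0.00492, 95% interval 0.50 to 1.02) and CDA by 1.03 (limma adjusted p 0.00826, 0.62 to 1.45). DHODH was lower with shRNA 2, with a difference of -0.43 (limma adjusted p 0.0471, -0.71 to -0.14), and this call was lost under 12 of 14 other settings, with adjusted p up to 0.176. For CDA the call was lost without replicate 2 of shRNA 1 (limma adjusted p 0.0617) and in a fit to the compared groups alone (0.0660), and for UCK2 only in a fit to the compared groups alone (0.0529). Leaving out replicate 2 of shRNA 2 gave 0.90 for UCK2, 1.30 for CDA and -0.29 for DHODH. Leaving out replicate 1 of that hairpin gave 0.62, 0.77 and -0.56. CAD differed by -0.02 between the hairpins, with an interval of -0.22 to 0.19. UPP1 and PGM2 were 0.37 and 0.42 higher with shRNA 2, short of the threshold (limma adjusted p 0.0687 and 0.101). Without replicate 2 of shRNA 2 UPP1 passed (0.52, limma adjusted p 0.0190) and PGM2 did not (0.33, 0.266). PGM2 passed without either control library at 0 mM (0.0363 and 0.0365), and both passed by limma voom (0.0431 and 0.0451). The 2 hairpins also differed in the level of MAPKAPK2 left, given above, and the part of that in these differences was not tested.

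Without glucose, in control cells at 24 h, UPP1 stood apart from the other members. It had 23.1 and 24.3 FPKM at 0 mM, against 13.3 and 12.0 FPKM at 20 mM. Means were 23.7 ± 0.909 and 12.7 ± 0.897 FPKM (SD, n = 2 each), a 1.87-fold difference or 0.85 on the log2 scale, and 0.82 without replicate 2 at 0 mM, which stands apart. UPP1 is in the list because of this difference, which is given for description only. Relative to UCK1, the FPKM of UPP1 was 2.72 and 3.18 at 0 mM, against 1.43 and 1.37 at 20 mM.

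None of the other members came near that size. CDA had 21.3 and 19.0 FPKM at 0 mM, against 16.1 and 15.4 FPKM at 20 mM, a log2 difference of 0.33. DHODH had 4.06 and 4.21 FPKM at 0 mM, against 3.43 and 3.96 FPKM at 20 mM. With UPP1 these were the 3 members whose libraries at 0 mM were both above both at 20 mM, an arrangement found in 19.1% of all tested genes. UMPS, at 7.52 and 8.15 FPKM at 0 mM against 9.76 and 8.94 FPKM at 20 mM, and UCK1, at 8.47 and 7.65 FPKM against 9.30 and 8.78 FPKM, showed the opposite arrangement, found in 22.2% of all tested genes. Without replicate 2 at 0 mM the log2 differences were 0.41 for CDA, 0.11 for DHODH, -0.28 for UMPS and -0.08 for UCK1.

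The remaining 4 members overlapped between the glucose levels. CAD had 41.9 and 42.3 FPKM at 0 mM, against 42.8 and 39.2 FPKM at 20 mM, and UCK2 had 10.7 and 10.7 FPKM at 0 mM, against 11.1 and 10.3 FPKM at 20 mM. UCKL1 had 21.1 and 16.9 FPKM at 0 mM, against 17.8 and 20.0 FPKM at 20 mM. PGM2, the partner of UPP1 in the ribose route, had 10.3 and 14.8 FPKM at 0 mM, against 13.8 and 13.6 FPKM at 20 mM. Its log2 difference of -0.14 became -0.38 without replicate 2 at 0 mM, the library at 14.8 FPKM, and 0.11 without replicate 1 at 0 mM, so its direction rested on 1 library. The differences of CAD, UCK2 and UCKL1 without replicate 2 at 0 mM were 0.03, 0.01 and 0.16, and when any 1 library was left out that of UCKL1 ran from -0.15 to 0.16. Over all 16239 tested genes the planned fit called 0% of genes for glucose, with 1421 genes at an unadjusted p under 0.05 and 28 called by limma voom on the recovered reads.

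The genes around the members were read as lists chosen by role. Of 7 genes in the nucleoside transporter families SLC28A and SLC29A, 4 were expressed well enough to test. SLC29A4, a plasma membrane transporter that carries monoamines, rose with both hairpins. It had 6.86 and 6.64 FPKM with shRNA 1 and 8.16 and 6.60 FPKM with shRNA 2, against 4.62 and 4.80 FPKM in control cells at 20 mM (log2 0.44 and 0.55, limma adjusted p 0.0434 and 0.0215). When each of the 8 libraries was left out in turn, its call with shRNA 1 stood in 2 of 8 fits and that with shRNA 2 in 5 of 8, without replicate 2 of shRNA 2 among them. SLC29A1, the main equilibrative transporter of uridine, did not pass (log2 -0.26 and -0.30), and no concentrative transporter of the SLC28A family reached the filter.

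Among these lists, uridine supply and ribose use held the largest rise. Of 16 tested genes, 2 rose and 2 fell with shRNA 1, and 6 rose and 1 fell with shRNA 2. Their median log2 difference was -0.18 and 0.21, against -0.01 and 0.01 for all genes. Among all tested genes 9.35% were called higher and 10.5% lower with shRNA 1, and 11.1% higher and 7.73% lower with shRNA 2. NT5E, the surface enzyme CD73 that releases nucleosides from extracellular monophosphates, had 31.9 and 32.3 FPKM with shRNA 1 and 137 and 164 FPKM with shRNA 2, against 19.6 and 20.4 FPKM in control cells at 20 mM. Its libraries did not overlap between the 3 groups, and the log2 differences from control were 0.66 (limma adjusted p 0.00927) and 2.85 (limma adjusted p 9.54e-05, a 7.55-fold higher mean). PGM1, the main phosphoglucomutase of glycogen metabolism, had 14.9 and 12.7 FPKM with shRNA 1 and 21.0 and 17.7 FPKM with shRNA 2, against 6.84 and 6.79 FPKM in control cells, so that it rose with both hairpins (log2 0.91 and 1.38, limma adjusted p 0.00384 and 7.89e-04). DERA, an aldolase of deoxyribose phosphate, rose with shRNA 2 (log2 1.02, limma adjusted p 0.00225), and RPIA, the isomerase of ribose 5-phosphate, fell with it (log2 -0.60, limma adjusted p 0.00634). With shRNA 1 their differences were -0.19 and 0.02, and neither passed. Whichever library was left out, fewer genes of the list were called higher with shRNA 2 than in the planned fit. With shRNA 1 the 2 that fell lost their calls without any 1 of the libraries compared. NT5E, PGM1 and DERA kept their calls with shRNA 2 in 8 of 8 such fits, and without replicate 2 of shRNA 2 their differences were 2.72, 1.49 and 1.04. RPIA lost its call without control replicate 1 at 20 mM (limma adjusted p 0.0583). NT5E kept its call with shRNA 1 in 4 of 8 fits and PGM1 in 8 of 8.

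Of 11 tested genes of deoxypyrimidine synthesis, 4 fell, 1 rose and 6 did not pass with shRNA 1, where 10.5% of all tested genes were called lower. With shRNA 2, 6 of 11 fell and 5 did not pass, beside 7.73% of all tested genes called lower. The list's medians were -0.35 and -0.41, against -0.01 and 0.01 for all tested genes. With each library left out in turn, the count that fell with shRNA 1 was 1 or 2 without any 1 of the 4 libraries compared, 4 without either library at 0 mM and 8 without either of shRNA 2. With shRNA 2 the count that fell was 1 without either control library at 20 mM and 5 or 6 otherwise, 6 of them without replicate 2 of shRNA 2. TYMS, which makes thymidylate, had 6.26 and 6.65 FPKM with shRNA 1 and 20.6 and 17.0 FPKM with shRNA 2, against 28.0 and 26.3 FPKM in control cells at 20 mM (log2 -1.92 and -0.51, limma adjusted p 4.09e-04 and 0.0197). Genes on the opposite strand overlap 46.6% of its exon bases, so its level is uncertain to that extent. RRM2, the small subunit of ribonucleotide reductase, fell with both (log2 -0.78 and -1.10), with 20.2% of its exon bases overlapped by another gene, and TK1, the S phase thymidine kinase, fell with both (log2 -0.78 and -0.86). When replicate 2 of shRNA 2 was left out, the differences with that hairpin were -0.38 for TYMS, -1.26 for RRM2 and -0.68 for TK1, each still called, and TYMS and TK1 lost that call without either control library at 20 mM. With shRNA 1, TYMS kept its call whichever of the 8 libraries was dropped, and RRM2 and TK1 in 5 of 8 such fits each.

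In nucleotide interconversion 2 of 8 fell and 0 rose with shRNA 1, and 1 rose and 0 fell with shRNA 2. Of all tested genes 10.5% were called lower with shRNA 1 and 11.1% higher with shRNA 2. CTPS1, which makes CTP, fell with shRNA 1 (log2 -0.37, limma adjusted p 0.0274), a call that stood for 2 of the 8 libraries when each was dropped in turn. With shRNA 2 it differed by -0.09, and the difference between the hairpins did not pass (0.28, limma adjusted p 0.0585). CMPK1, the kinase of UMP and CMP, was chosen after its values were seen, since it was called in opposite directions with the 2 hairpins. It had 22.2 and 22.2 FPKM with shRNA 1 and 44.0 and 50.6 FPKM with shRNA 2, against 31.2 and 32.2 FPKM in control cells at 20 mM. Its log2 differences were -0.50 and 0.56 (limma adjusted p 0.0305 and 0.0206), and it was higher with shRNA 2 than with shRNA 1 by 1.06 (limma adjusted p 0.00201). Its call with shRNA 2 was lost without replicate 2 of that hairpin (0.46, limma adjusted p 0.0660) and without either control library at 20 mM, and its call with shRNA 1 without any 1 of the 4 libraries compared. The 3 genes of pyrimidine breakdown did not reach the filter.

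**Figure D3:**
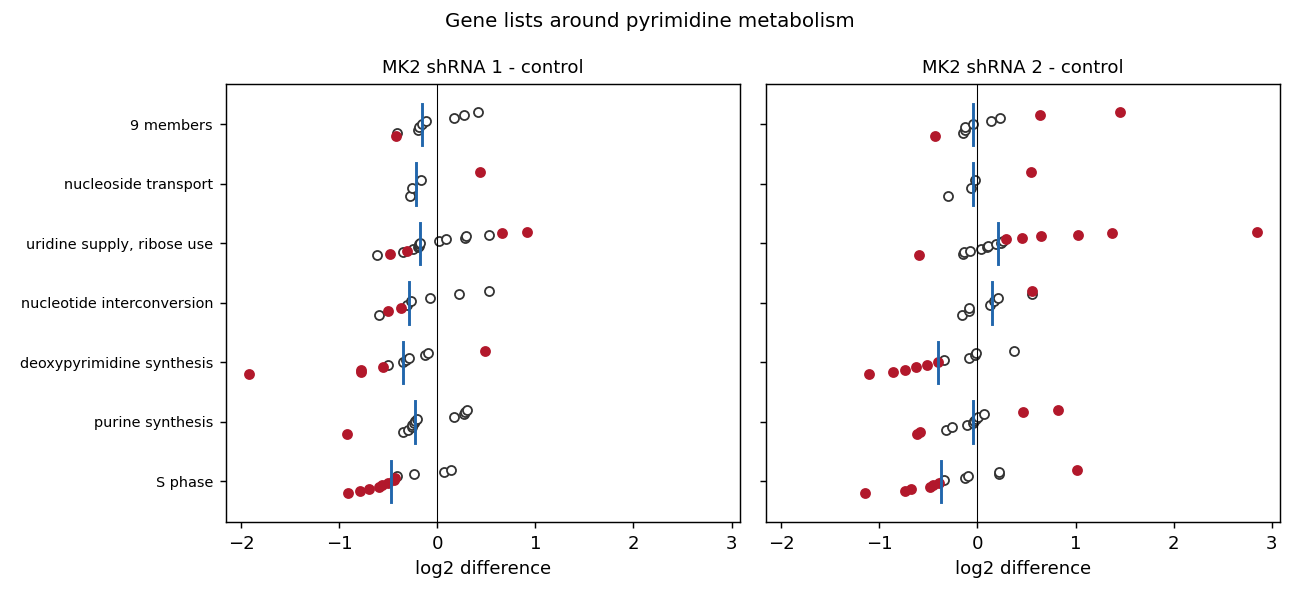
Difference in log2(FPKM + 1) from control cells at 20 mM glucose (horizontal axis) for every tested gene of 7 lists, with shRNA 1 at the left and shRNA 2 at the right. Filled red points have a limma adjusted p below 0.05, open points do not, and blue bars are list medians. The deoxypyrimidine and S phase lists have medians between -0.35 and -0.47 with shRNA 1 and between -0.37 and -0.41 with shRNA 2, while NT5E is the point at 2.85.

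CAD moved beside genes of S phase, a list of 12 replication and cell cycle genes. Of these, 8 fell and 0 rose with shRNA 1 (median -0.47), and 6 fell and 1, CCNE1, rose with shRNA 2 (median -0.37). The shares of all tested genes were 10.5% lower and 9.35% higher with shRNA 1, and 7.73% lower and 11.1% higher with shRNA 2. MCM7, a replicative helicase subunit, fell by 0.91 with shRNA 1 and by 0.67 with shRNA 2 on the log2 scale. With shRNA 1, 3 to 5 S phase genes fell without any 1 of the 4 libraries compared, and 7 or 8 when another library was left out. With shRNA 2, 2 or 3 fell without either control library at 20 mM, and 6 or 7 when another was left out, 7 of them without its replicate 2. Without glucose, all 12 S phase genes were below their level at 20 mM (median -0.35, none called, and -0.32 without replicate 2 at 0 mM), while CAD differed by 0.04. MYC, a known activator of CAD transcription, rose with both hairpins, to 178 and 172 FPKM with shRNA 1 and 162 and 165 FPKM with shRNA 2, against 112 and 112 FPKM in control cells (log2 0.64 and 0.54, limma adjusted p 0.00356 and 0.00589). MCM7 and MYC differed by -0.54 and 0.53 with shRNA 2 when its replicate 2 was left out, both still called, and both lost that call without either control library at 20 mM. The part of either in the level of CAD was not tested. Purine synthesis was set beside the members for comparison. Of its 12 genes, 1 fell and 0 rose with shRNA 1, and 2 rose and 2 fell with shRNA 2. Medians were -0.23 and -0.04, and the shares of all tested genes are those given beside S phase.

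The profiles over all 8 libraries were compared with other protein-coding genes of at least 5 FPKM on average, by the root mean square difference of gene-centred log2(FPKM + 1). Nearest to UPP1, among 3257 candidates, were TRIB3 at 0.087, PDGFB at 0.134, KRT15 at 0.154, AARS at 0.178 and THOC6 at 0.182. The distance includes the 0 mM libraries for which UPP1 was chosen. This nearness thus follows in part from that choice and is a description only. TRIB3, a pseudokinase, had 9.34 and 9.22 FPKM with shRNA 1, 12.9 and 11.3 FPKM with shRNA 2 and 20.8 and 21.7 FPKM in control cells at 0 mM, against 11.8 and 12.5 FPKM in control cells at 20 mM. Nearest to CAD, among 6535 candidates, were PDCD7 at 0.044, SETD1A at 0.048, ZNF865, SETD6 and TJAP1. Nearest to UCK2, among 5568 candidates, was PKM at 0.055, the gene of the muscle-type pyruvate kinase, with 353 and 311 FPKM with shRNA 2, against 219 and 225 FPKM in control cells at 20 mM. ZBTB17, a zinc finger protein that binds MYC, followed at 0.058, and CTTN, MXRA7 and ABR came next. With 8 libraries in 4 groups, a near profile mostly says that the 4 group means are alike.

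**Figure D4:**
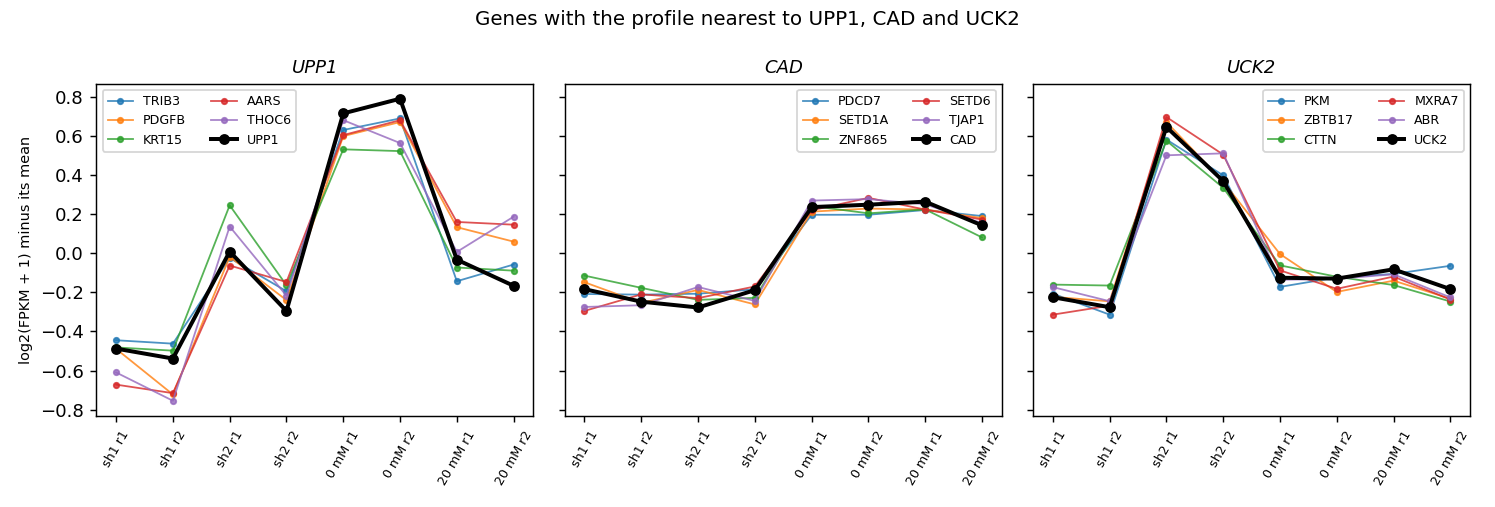
log2(FPKM + 1) minus each gene's mean (vertical axis) in the 8 libraries (horizontal axis: shRNA 1, shRNA 2, control at 0 mM and control at 20 mM, 2 libraries each) for UPP1, CAD and UCK2 in black and the 5 genes nearest to each in colour. Lines only join the points of a gene. UPP1 and TRIB3 peak at 0 mM, CAD and its neighbours sit low in the 4 knockdown libraries, and UCK2 and PKM peak with shRNA 2.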

How the data were processed

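Total RNA of HCT116 cells was sequenced in 8 libraries, grouped by the labels. HISAT2 2.0.5 is listed among the authors' tools per the submitters' processing notes, which also list DESeq2 1.20.0 and featureCounts 1.5.0-p3 and do not say what each was used for. The labels' protocols do not settle whether libraries kept strand, and neither the strand setting nor the build was found in them. The authors deposited FPKM values of 58735 genes, whose identifiers, starts and ends all match GENCODE 29 on GRCh38. Each FPKM times the exon length is a whole multiple of 1 read, within 0.01 read and in proportion more for large values, for 100% of values, which gave back the reads. Fits of limma 3.58.1 in R 4.3.3 used log2(FPKM + 1), the 16239 genes that reached 1 FPKM in 2 or more libraries, 4 group means, an intensity trend and 4 residual degrees of freedom. This scale understates the change of low genes. Folds are ratios of mean FPKM. The threshold was 0.05 on p-values adjusted by Benjamini and Hochberg's method over these genes. The fit was also run on simulated counts, with the same extra spread for every gene and no library that stood apart. That run cannot tell how firm the calls in these libraries are. Alternatives were a pseudocount of 0.1, no filter, limma voom on the recovered reads, quantile normalization, a replicate block, only the compared groups, and leaving out each library. Voom used the library sizes behind FPKM, so it shared their scaling. With a single library left in a group, that library is assumed to vary like the other groups.

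The members and lists were chosen with earlier results of these data known. All members are named, with up to 4 genes per list by the smallest p in the mean of both hairpins, and the 5 nearest profiles for UPP1, CAD and UCK2, whose own SD was at least that gene's SD divided by 2. Some of the genes that the rule covers are given only within their list's count.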

Additional observations from a re-analysis of the deposited data

Results flagged for a closer look

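The 2 hairpins against MAPKAPK2 differed from each other in 3 members, by limma's test of the difference itself. Among all tested genes, 22.2% differed between the hairpins. With shRNA 2 relative to shRNA 1, UCK2 was higher by 0.76 and CDA by 1.03 on the log2 scale, while DHODH differed by -0.43. The DHODH call stood under only 2 of 14 other settings, and no member passed in a fit to the compared groups alone. Both libraries with shRNA 2 were above both with shRNA 1 for UCK2 and CDA, and below both for DHODH. CAD, the member called with each hairpin, differed by -0.02 between them.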

How the results depend on the processing

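Over all 9 members and 4 tested comparisons, no called difference changed sign under the settings run. With shRNA 1 against control, 1 member passed in the planned fit, 2 by limma voom on the recovered reads, 3 with only the compared groups, and 0 to 3 when a library was left out. With shRNA 2 against control, 3 members passed, 1 with only the compared groups and 1 to 3 with a library left out. For shRNA 2 against shRNA 1 the counts were 3 as planned, 5 by voom, 0 with only the compared groups and 1 to 3 with a library left out. The mean of both hairpins gave 2, and 0 to 3 with a library left out. Replicates 1 and 2 share only a number: correlations of the difference between replicates across groups ran from -0.0295 to 0.179, and the replicate block moved the count with shRNA 1 to 2 by adding UPP1 (adjusted p 0.0449). Members with both libraries at 0 mM above both at 20 mM numbered 3, and 3 to 5 with a library left out.

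Uncalled differences changed sign with quantile normalization for PGM2 in the mean of both hairpins (-0.0114) and for UCK1 (-0.0500) and UMPS (-0.0163) between the hairpins. With a library left out, sign changes were seen for CAD (-0.0618 to 0.0269), UCK1 (-0.0847 to 0.137) and UCKL1 (-0.119 to 0.0551) between the hairpins, for DHODH (-0.0198 to 0.144) and PGM2 (-0.0283 to 0.0614) in the mean, and for UPP1 with shRNA 2 (-0.196 to 0.108). The untested glucose differences of PGM2 (-0.376 to 0.106), UCKL1 (-0.147 to 0.157), CAD (-0.0219 to 0.0996) and UCK2 (-0.0453 to 0.0560) changed sign likewise. The cause of these sign changes was not tested. A fit with fewer libraries also has fewer residual degrees of freedom, which bears on calls and not on signs. Over all genes, calls for the mean numbered 2816 as planned, 686 to 3439 with a library left out and 1808 to 3689 under the other settings. In the same order they numbered 3222, 942 to 4054 and 2223 to 4133 with shRNA 1, 3055, 1015 to 3026 and 961 to 3937 with shRNA 2, 3602, 1335 to 3473 and 1136 to 4604 between the hairpins, and 0, 0 to 1 and 0 to 28 for glucose. The median over all genes moved by at most 0.0302 on the log2 scale.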
